A study of Homo sapiens with 12 samples.

Results

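Syndecans and glypicans are the heparan sulfate proteoglycans of the cell surface, and 7 of their genes were followed here: the syndecans SDC1, SDC2, SDC3 and SDC4 and the glypicans GPC1, GPC4 and GPC6. They were taken by symbol from a table of transcripts that gave 24559 gene symbols with counts, and they were selected on their measured levels and fold changes in these libraries, since earlier results were known when the list was made. Their values in the 6 groups are therefore a description with no p-values, and where members past a threshold are counted, the count is no evidence of an effect. All 7 passed the filter on low counts that left 16538 genes, GPC4 only through the overexpressing group.

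RNA bound to polysomes was sequenced from 3 triple-negative breast cancer (TNBC) cell lines in 12 libraries, 2 per group, with 22954226 to 27434677 counts each. MDA-MB-231 and SUM159 cells carried a GIPZ shRNA against TRMT112 (KD) or, as EV control, a non-silencing GIPZ shRNA, and were selected with puromycin. BT549 cells carried a TRMT112 open reading frame in pReceiver-M02 (OE) or the same vector empty (EV) and were selected with G418. The comparisons asked which mRNAs changed on polysomes when TRMT112, a cofactor of methyltransferases that modify rRNA, tRNA and proteins, was lowered or raised, in cells given no further treatment. The number of hairpins, and whether the selected cells were pools or clones, is not given in the sources used here. The labels do not say that the paired libraries came from separate cultures, so p-values measure only the spread between these libraries, which may be technical. The medium differed between lines, with insulin and hydrocortisone added for SUM159 only.

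TRMT112 itself, at 164.7 and 173.4 CPM (counts scaled to a common library size with TMM factors) in MDA-MB-231 EV, stood at 70.36 and 73.79 CPM in KD. It stood at 264.9 and 274.6 CPM in SUM159 EV and at 154.7 and 163.5 CPM in KD. In BT549 it stood at 128.6 and 129.1 CPM in EV and at 179.3 and 180.7 CPM in OE. These levels went with the labels, with log2 fold changes of -1.23, -0.76 and 0.48 and edgeR adjusted p-values of 5.1e-16, 1.76e-14 and 1.48e-10. Of the receptors that define TNBC, ESR1 was not among the gene symbols with counts, so its level is unknown. PGR was at 0 to 0.417 CPM, while ERBB2 mRNA was present at 57.92 to 143.1 CPM. Replicates differed by a median of 0.0763 to 0.0926 on the log2 scale. Because no unfractionated RNA was sequenced here, a higher level can come from more mRNA or from more of it on ribosomes, and these cannot be told apart. Scaling by TMM also removes any shift in the total amount of polysomal mRNA.

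Syndecans cross the membrane and hold their heparan sulfate chains near the outer end, whereas glypicans are tied to the membrane by a glycosylphosphatidylinositol anchor and carry their chains close to it. The chains bind growth factors such as FGFs, chemokines and matrix proteins and present them to their receptors. The short cytoplasmic tail of the syndecans ends in a sequence that binds PDZ proteins such as syntenin, the product of SDCBP. SDC1 is typical of epithelia, SDC2 of mesenchymal cells and SDC3 of neural tissue, and SDC4 is a widespread member found at focal adhesions.

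The ends of the coding sequences show what the syndecans share. The last 60 coding bases before the stop codon of the main transcripts of SDC1, SDC3 and SDC4, read 5′ to 3′ from the GENCODE 44 transcripts, are given with the last 12 bases, which encode the PDZ-binding end, in capitals. They are shown because this end ties these genes to SDCBP, whose counts are given further on.
SDC1-201: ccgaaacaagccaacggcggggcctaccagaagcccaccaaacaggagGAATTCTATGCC
SDC3-202: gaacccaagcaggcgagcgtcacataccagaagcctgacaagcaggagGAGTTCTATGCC
SDC4-201: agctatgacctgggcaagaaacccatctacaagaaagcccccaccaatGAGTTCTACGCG
All 3 were identical at 18 of the 60 positions, and 9 of these were among the last 12. SDC1 and SDC3 shared 36 of 60 bases, SDC1 and SDC4 22, and SDC3 and SDC4 24.

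SDC1 (chr2:20200797-20225433, minus strand, GRCh38) took opposite sides of the control in the KD lines. In MDA-MB-231 it was at 76.77 and 75.28 CPM in EV and at 95.77 and 91.60 CPM in KD, a log2 fold change of 0.30 ± 0.04 (SE). In SUM159 it was at 299.2 and 286.0 CPM in EV and at 28.00 and 27.28 CPM in KD, a log2 fold change of -3.41 ± 0.05. In BT549 it was at 355.5 and 360.1 CPM in EV and at 260.5 and 254.5 CPM in OE, a log2 fold change of -0.47 ± 0.03. No EV library overlapped a KD or OE library of its line, and the groups ran from BT549 EV down through SUM159 EV, BT549 OE, MDA-MB-231 KD and MDA-MB-231 EV to SUM159 KD, a 12.9-fold range of group means. Neighbours in that order differed by more than their combined SDs.

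The SUM159 difference in SDC1 was seen in both of its main transcripts. SDC1-201 held 80.9% to 83.9% of the gene's counts in SUM159 EV and 64.2% to 76.7% in KD, and its mean expected count was 5719 in EV and 502.0 in KD. SDC1-202, which starts further upstream at position 20225433 of chromosome 2, had a mean of 1120 in EV and 204.6 in KD. The share of the second transcript was thus higher in KD, at 22.7% to 35.9% against 14.7% to 17.5%, while both were lower in counts. Division of counts among overlapping transcripts is an estimate by the counting tool, and over the 12 libraries the share of SDC1-201 ranged from 64.2% to 88.1%.

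SDC2 (on chromosome 8) was higher in KD or OE than in EV in all 3 lines. In MDA-MB-231 its level was 27.31 and 28.11 CPM in EV and 34.13 and 33.89 CPM in KD (log2 fold change 0.30 ± 0.06, SE). In SUM159 it was 23.51 and 25.31 CPM in EV and 49.04 and 48.95 CPM in KD (1.00 ± 0.06). In BT549 it was 53.31 and 56.46 CPM in EV and 264.3 and 263.2 CPM in OE (2.26 ± 0.04). BT549 OE therefore stood far above all other libraries, and the remaining groups lay between 23.51 and 56.46 CPM. SUM159 EV and MDA-MB-231 EV, the lowest groups, did not overlap but lay only 3.30 CPM apart, against combined SDs of 1.39.

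SDC3 (chr1:30869466-30908758, minus strand) had the widest range of the syndecans and was higher in KD or OE in every line. In MDA-MB-231 it was at 98.53 and 99.08 CPM in EV and at 172.7 and 174.8 CPM in KD, a log2 fold change of 0.81 ± 0.04 (SE). In SUM159, where it was highest, it was at 380.1 and 386.5 CPM in EV and at 1059 and 1045 CPM in KD, a log2 fold change of 1.46 ± 0.03. In BT549 it was at 10.67 and 13.11 CPM in EV, the lowest group, and at 219.0 and 215.0 CPM in OE, a log2 fold change of 4.19 ± 0.07. The group means spanned 88.5-fold, from BT549 EV to SUM159 KD, without overlap between any groups. One transcript, SDC3-202, carried 98.1% to 100.0% of the counts in each library.

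SDC4 (chr20:45325288-45348424, minus strand), the focal adhesion syndecan, was the steadiest of the 7, with a 3.48-fold range of group means. In MDA-MB-231 it was at 155.1 and 156.2 CPM in EV and at 165.8 and 175.8 CPM in KD, a log2 fold change of 0.13 ± 0.03 (SE) that was 0.04 when libraries were scaled by their size alone. In SUM159 it was at 283.1 and 283.2 CPM in EV and at 347.1 and 355.7 CPM in KD, a log2 fold change of 0.31 ± 0.03. In BT549 it was at 310.7 and 307.4 CPM in EV and at 537.7 and 545.7 CPM in OE, a log2 fold change of 0.81 ± 0.03. Each EV pair lay below its KD or OE pair, most narrowly in MDA-MB-231.

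GPC1 (chr2:240435663-240468076, plus strand), a glypican found in many epithelial and neural cells, was higher in KD or OE in all 3 lines. In MDA-MB-231 it was at 18.30 and 19.82 CPM in EV and at 37.89 and 40.30 CPM in KD, a log2 fold change of 1.04 ± 0.06 (SE). In SUM159 it was at 434.5 and 434.0 CPM in EV and at 656.8 and 626.2 CPM in KD, a log2 fold change of 0.56 ± 0.03. In BT549 it was at 20.15 and 21.63 CPM in EV and at 129.8 and 124.7 CPM in OE, a log2 fold change of 2.61 ± 0.06. The SUM159 libraries stood above all others, and the group means spanned 33.7-fold. The lowest groups, BT549 EV and MDA-MB-231 EV, were 1.83 CPM apart with combined SDs of 1.5. The antisense gene GPC1-AS1 lies within GPC1 and had at most 5 counts in a library, but the strand setting of the counting is not stated, so reads of the pair cannot be told apart.

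GPC4 (chrX:133300103-133415489, minus strand), a glypican of stem and progenitor cells that modulates Wnt signaling, was found in quantity in 1 group. It had 3434 and 3330 counts in the BT549 OE libraries, or 159.1 and 157.7 CPM, and 0 counts in both BT549 EV libraries. With 3 counts per library as the most that a 0 allows, it was at least 1146-fold higher in OE, and this limit covers counting error only. In MDA-MB-231 it had 2 and 3 counts in EV and 0 in both KD libraries, and in SUM159 3 and 4 counts in EV and 0 in both KD libraries, so no fold is given there. Its neighbour GPC3, which lies 120256 bases away on the X chromosome, had 9 and 10 counts in BT549 OE and 0 in the other 10 libraries.

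GPC6 (chr13:93226807-94408020, plus strand), a glypican of mesenchymal tissues, was mainly a BT549 mRNA, and it stood on opposite sides of EV in the KD lines. In MDA-MB-231 it was at 8.85 and 9.43 CPM in EV and at 7.48 and 7.98 CPM in KD, a log2 fold change of -0.24 ± 0.10 (SE). In SUM159 it was at 1.14 and 0.757 CPM in EV, from 27 and 18 counts, and at 1.77 and 2.17 CPM in KD, a log2 fold change of 1.06 ± 0.25. In BT549 it was at 83.21 and 82.16 CPM in EV and at 125.4 and 121.3 CPM in OE, a log2 fold change of 0.58 ± 0.05. The pairs did not overlap in any line, and the group means spanned 130-fold, but the SUM159 difference rested on 18 to 60 counts per library and ranged from 0.79 to 1.38 when 1 of its EV libraries was left out. GPC5, which lies 353125 bases before GPC6 on chromosome 13, had 24 to 33 counts in the MDA-MB-231 libraries, 11 and 18 in BT549 EV, 0 in BT549 OE and at most 1 in SUM159. GPC2 had 24 to 81 counts in each of the 12 libraries.

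**Figure D1:**
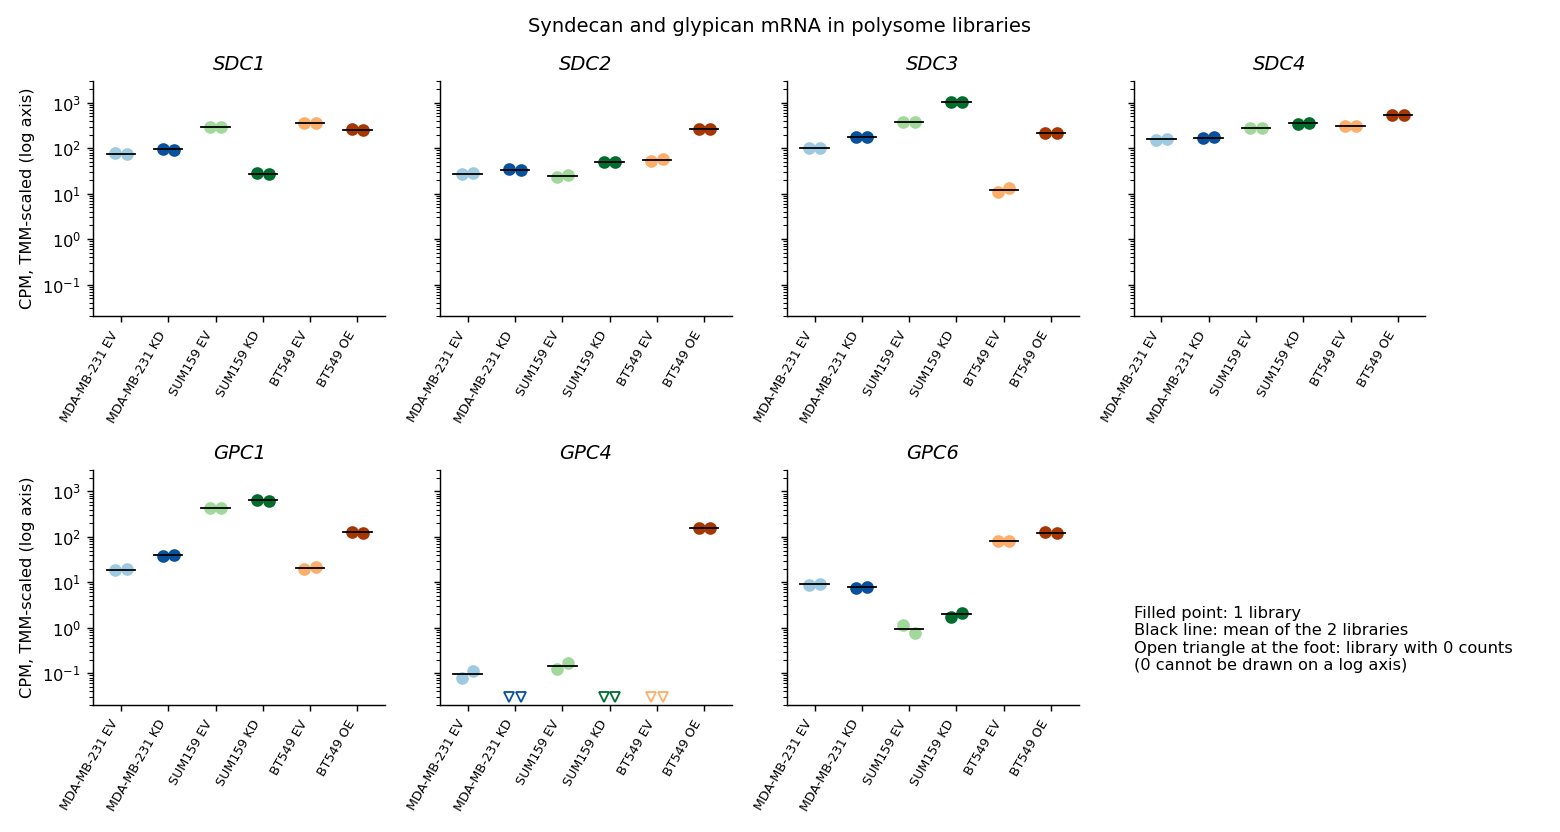
Level of each of the 7 mRNAs in every library, in TMM-scaled CPM on a log axis, by group (filled points are libraries, black lines the mean of 2, open triangles libraries with 0 counts). SDC1 is lowest in SUM159 KD at 27.28 and 28.00 CPM, SDC3 lowest in BT549 EV at 10.67 and 13.11 CPM, and GPC4 reaches 157.7 and 159.1 CPM in BT549 OE only.

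Set against all genes, the numbers past the threshold (edgeR adjusted p under 0.05) were as follows, and nothing is read from them since the list was drawn up on these contrasts. In MDA-MB-231 KD, 37.7% of all genes tested passed (21.2% higher, 16.5% lower), and 6 of the 7 did, 5 higher and 1 lower, the lower one being GPC4 on 2 and 3 counts against 0. GPC6 was the member that did not pass. In SUM159 KD, 60.1% of all genes (28.6% higher, 31.4% lower) and all 7 members passed, 5 higher and 2 lower (SDC1 and GPC4). In BT549 OE, 70.6% of all genes (35.6% higher, 35% lower) and all 7 members passed, 6 higher and 1 lower (SDC1). The median log2 fold change of the members was 0.30, 0.56 and 2.26 in that order of comparisons, beside 0, 0 and 0.02 over all genes, and 0.30, 0.78 and 1.54 without GPC4, whose fitted values depend on the prior count and whose bound in BT549, 10.16 on the log2 scale, lies above that median. A change of 1 or more on the log2 scale, in either direction, was fitted for 8.85%, 22% and 37.7% of all genes. These shares leave out genes with counts only in MDA-MB-231 or SUM159, since no transcript given was at 0 in all 4 BT549 libraries.

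**Figure D2:**
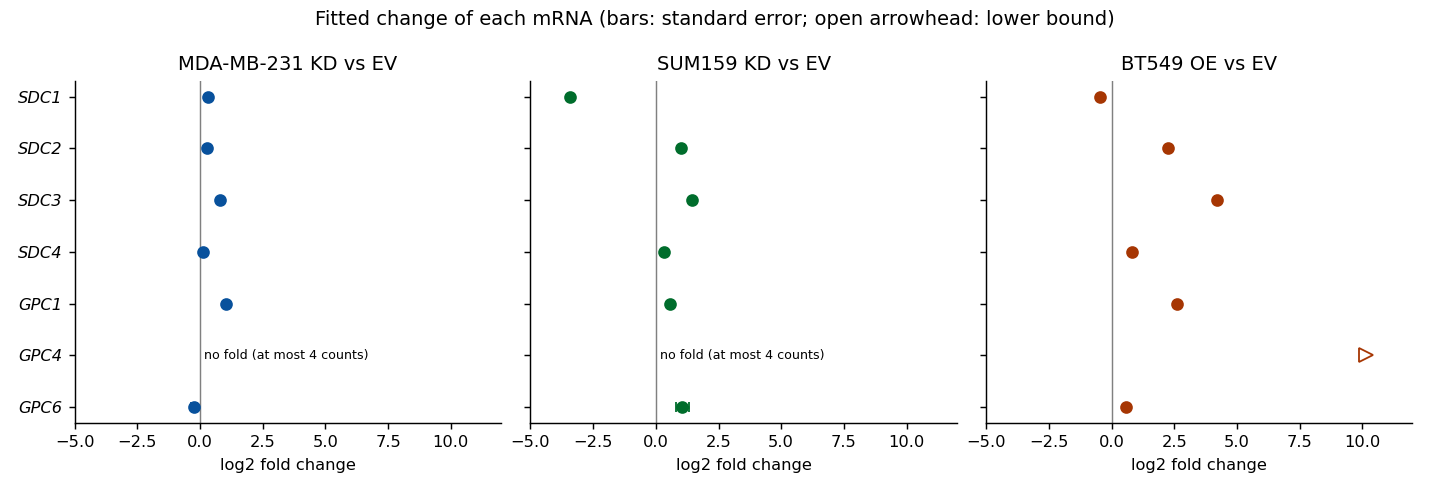
Fitted log2 fold change of each mRNA in the 3 comparisons (x axis), with bars for the standard error and an open arrowhead for the lower bound of GPC4 in BT549. SDC1 is the only gene drawn left of 0 by more than 1, at -3.41 in SUM159 KD, while SDC3 reaches 4.19 in BT549 OE.

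Levels of different genes were compared per length, as CPM per kilobase with each transcript divided by its own length, and shares were taken within each family. In MDA-MB-231, SDC4 made up 52.5% ± 0.148 (SD, n = 2) of the syndecan level in EV and 45.8% ± 1.59 in KD, with SDC3 at 16.6% ± 0.0398 and 23.21% ± 0.0465. The syndecan total was 113.4 ± 0.870 CPM per kilobase in EV and 142.6 ± 0.911 in KD. Thus SDC4 led in both groups, and SDC3 passed SDC1, which was at 21.4% and 21.1%.

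In SUM159 the make-up of the syndecans turned over. SDC1 made up 33.2% ± 0.861 (SD, n = 2) of their level per length in EV and 2.42% ± 0.00887 in KD, and SDC3 25.7% ± 0.520 and 55.4% ± 0.448. The total was nonetheless higher in KD, at 361.8 ± 0.318 CPM per kilobase against 284.4 ± 2.31. SDC4 was at 38.1% ± 0.320 and 37.2% ± 0.679, so that SDC3 took the lead from it.

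In BT549 EV, SDC4 at 45.7% ± 0.354 (SD, n = 2) and SDC1 at 44.7% ± 0.881 had near-equal shares, and SDC3 had 0.880% ± 0.126. In OE, SDC1 was at 19.3% ± 0.147, SDC2 at 22.6% ± 1.69, SDC3 at 9.66% ± 0.124 and SDC4 at 48.4% ± 1.71. The order of SDC1 and SDC2 in OE was not settled, since their levels per length of 82.62 and 97.05 became 81.36 and 79.76 when the length of the main transcript was used. The syndecan total was 259.0 ± 0.0788 CPM per kilobase in EV and 428.3 ± 10.7 in OE.

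GPC1 led the glypicans in 5 of the 6 groups, and GPC6 led in BT549 EV. GPC1 made up 99.9% of the level per length of GPC1, GPC4 and GPC6 in SUM159 EV and 99.8% in KD, and it made up 80.3% ± 0.639 (SD, n = 2) in MDA-MB-231 EV and 91.3% ± 0.198 in KD. In BT549 EV, GPC6 led with 66.9% ± 1.95, followed by GPC1 with 33.1% ± 1.95. In BT549 OE all 3 were present, GPC1 with 41.7% ± 0.495, GPC4 with 37.8% ± 0.554 and GPC6 with 20.5% ± 0.0590. The glypican total per length was 6.61 and 12.5 CPM per kilobase in MDA-MB-231 EV and KD, 121.4 and 178.7 in SUM159, and 17.4 and 84.4 in BT549 EV and OE. It thus stayed below the syndecan total in all 6 groups.

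**Figure D3:**
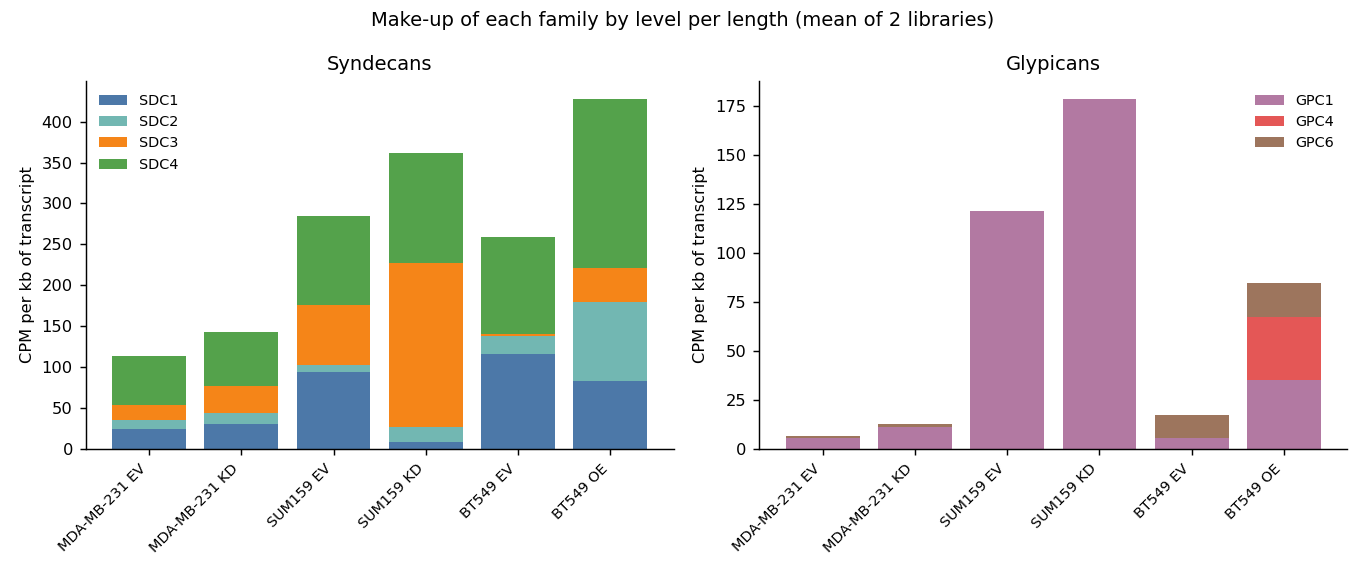
Mean level per length (CPM per kilobase of transcript, 2 libraries per group) of the 4 syndecans and 3 glypicans, stacked by group. In SUM159 the SDC1 layer shrinks from 94.35 to 8.74 and the SDC3 layer grows from 72.99 to 200.4, and in BT549 OE a GPC4 layer of 31.93 stands where EV has none.

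The start regions of SDC1, SDC3 and GPC4, which had the largest fold changes in either direction, are given from RefSeq (GRCh38.p14), from 250 bases before to 50 bases after the transcription start and on the strand of the gene. Capitals mark GGGCGG or its complement CCGCCC, the core of the GC box bound by SP1, searched on both strands with overlapping matches counted. The SDC1 window belongs to the start of SDC1-201 (chr2:20225081-20225380), the SDC3 window to that of SDC3-202 (chr1:30908709-30909008) and the GPC4 window to that of GPC4-201 (chrX:133415440-133415739), all on the minus strand.
SDC1: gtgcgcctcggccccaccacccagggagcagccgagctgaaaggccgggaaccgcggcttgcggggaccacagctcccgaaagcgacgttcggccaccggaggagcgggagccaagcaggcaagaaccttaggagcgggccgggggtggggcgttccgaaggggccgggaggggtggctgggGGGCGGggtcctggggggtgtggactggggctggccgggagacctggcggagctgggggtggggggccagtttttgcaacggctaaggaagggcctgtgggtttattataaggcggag
SDC3: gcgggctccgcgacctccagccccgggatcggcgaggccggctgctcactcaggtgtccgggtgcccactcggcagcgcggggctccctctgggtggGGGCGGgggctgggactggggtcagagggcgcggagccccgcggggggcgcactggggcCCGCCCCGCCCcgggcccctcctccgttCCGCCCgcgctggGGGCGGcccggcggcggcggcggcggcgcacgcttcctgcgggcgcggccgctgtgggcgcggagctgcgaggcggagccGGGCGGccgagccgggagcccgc
GPC4: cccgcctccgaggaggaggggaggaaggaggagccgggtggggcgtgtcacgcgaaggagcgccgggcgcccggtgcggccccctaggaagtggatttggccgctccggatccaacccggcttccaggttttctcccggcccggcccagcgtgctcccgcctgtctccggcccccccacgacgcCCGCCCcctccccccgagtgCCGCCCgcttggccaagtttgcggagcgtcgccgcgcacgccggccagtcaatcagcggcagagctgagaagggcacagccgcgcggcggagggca
The windows hold 1, 6 and 2 such sites and 23, 46 and 37 CG dinucleotides, where 45% of 35116 RefSeq promoter windows hold at least 1 site and the median window has 14 CG dinucleotides. GPC1 and SDC4 had 4 and 8 sites, with 83.3% and 74% GC beside a median of 58.7% over all windows. GPC6 was apart, with 40% GC, no GGGCGG and 1 TATAAA, a motif that 11.5% of windows hold. These matches describe letters in the windows and say nothing of binding.

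Across the 6 group means of log2 CPM, the members followed separate patterns, which is a description of 6 points that share cell lines in pairs. GPC4 is left out of the likeness within the list, since its pattern rests on BT549 OE alone. Among the others, SDC3 and GPC1 were the most alike (Pearson r = 0.838), then SDC2 and SDC4 (0.805), and SDC3 and GPC6 were the least alike (-0.665). The closest patterns were sought among tested genes averaging 50 or more counts that had r of at least 0.95 over the 12 libraries. They were EIF3B and HNRNPA2B1 for SDC1 (r = 0.9864 and 0.9834), CD2BP2 and NTAN1 for SDC2 (0.9967 and 0.9955), and TLNRD1 and TENT5B for SDC3 (0.9981 and 0.9971). For SDC4 they were PLPP1 and APMAP (0.9947 and 0.9946), and for GPC1 they were TGFBI and MED14 (0.9968 and 0.9962). For GPC4, by that 1 high group, they were MFAP5 and HSPB7 (0.9991 and 0.9990), and for GPC6 DOHH and COPS5 (0.9976 and 0.9951). So many genes share a pattern of 6 points that 14 genes for SDC1 and up to 188 for SDC4 had r of at least 0.95 over the 12 libraries.

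The BT549 groups also differed in markers of other cell types. The summed level of 10 fibroblast markers was 756.6 to 777.9 CPM in EV, with DCN and LUM at 0, and 6666 to 6889 CPM in OE, with none at 0. COL1A1, a chain of type I collagen, was at 84.31 to 84.62 CPM in EV and 2309 to 2395 CPM in OE, and 8 epithelial markers summed to 65.72 to 66.68 CPM in EV and 5.11 to 5.84 CPM in OE, with KRT8 and KRT18 under 1 CPM in both. The summed level of 7 mesenchymal markers went the other way, from 2489 to 2525 CPM in EV to 1424 to 1456 CPM in OE. That fall came mainly from VIM, at 1980 to 1986 CPM in EV and 703.6 to 729.9 CPM in OE. FN1, ZEB1 and ZEB2 were also lower in OE. SNAI2 (29.04 to 29.09 CPM in EV, 269.3 to 274.9 in OE), TWIST1 (218.8 to 243.7 and 278.0 to 283.7) and CDH2 (44.74 to 46.04 and 46.23 to 50.23) were higher. These shifts moved with the higher SDC2, SDC3, SDC4, GPC1, GPC4 and GPC6 and the lower SDC1 in OE, and their part in the result was not tested. Whether the OE and EV libraries hold the same cell line was not tested either, beyond their labels, so the BT549 values compare the libraries so labelled. In SUM159, beside the lower SDC1, the epithelial list summed to 1679 to 1725 CPM in EV and 1551 to 1623 CPM in KD. Within it KRT7 (1269 to 1297 CPM in EV, 1020 to 1062 in KD), KRT18 and KRT14 were lower in KD. KRT8 was higher, at 205.4 to 206.8 CPM in EV and 347.6 to 365.5 in KD. The fibroblast list summed to 365.7 to 371.1 CPM in EV and 707.0 to 725.2 CPM in KD. The higher fibroblast sum there came from THY1 (26.38 to 29.14 CPM in EV, 291.4 to 302.2 in KD) and COL1A1 (310.4 to 312.7 and 405.1 to 410.6), whereas COL3A1, DCN, PDGFRA and PDGFRB were lower in KD. Over 16538 genes the log2 CPM of BT549 EV and OE libraries correlated at 0.9041 to 0.9045, below the 0.9902 to 0.9903 of MDA-MB-231 EV and KD and the 0.9667 to 0.9679 of SUM159, while libraries of different lines reached at most 0.8671.

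Of 105 other genes of heparan sulfate proteoglycan biology, 90 were tested. These lists were also chosen with earlier results of these data known. Their counts and shares are therefore a description, and a share above that of all genes is no evidence of an effect. The p-values of the genes named from them carry the same limit. In MDA-MB-231 KD, 29 rose and 10 fell, with a median log2 fold change of 0.06 beside 0 for all genes, and 43.3% passed beside 37.7%; scaled by library size alone, 23 rose and 17 fell. In SUM159 KD, 40 rose and 32 fell (median 0.16 beside 0, 80% passed beside 60.1%). In BT549 OE, 44 rose and 32 fell (median 0.06 beside 0.02, 84.4% passed beside 70.6%). The KD effect differed between MDA-MB-231 and SUM159, by the contrast of both effects in the same model, for 58 of the 90 (64.4%) beside 50.9% of all genes.

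The genes that build, sulfate and degrade the chains were counted by list. Of 10 genes for chain synthesis, 5 rose and none fell in MDA-MB-231 KD, 7 rose and 2 fell in SUM159 KD, and 6 rose and 1 fell in BT549 OE. EXT1, a subunit of the polymerase that extends the chain, rose from 70.0 ± 2.01 to 183.0 ± 0.699 CPM in SUM159 KD (SD, n = 2; log2 fold change 1.39 ± 0.03, SE, edgeR adjusted p = 6.27e-20). Of 13 genes for modification, 3 rose and 2 fell, 4 rose and 5 fell, and 8 rose and 3 fell in the same order. HS3ST3B1, a 3-O-sulfotransferase, rose from 1.105 ± 0.187 to 40.02 ± 0.984 CPM in BT549 OE (5.17 ± 0.19, adjusted p = 2.93e-21). Of 9 degradation genes 3 rose and 2 fell, 4 rose and 4 fell, and 1 rose and 6 fell.

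Genes for shedding, for the anchor and for the cytoplasmic tail bore on the same proteins. Of 8 cleavage genes, 1, 3 and 4 rose and 0, 2 and 2 fell in MDA-MB-231 KD, SUM159 KD and BT549 OE. The sheddase MMP14 rose in both KD lines, by 0.43 ± 0.04 and 1.99 ± 0.06 on the log2 scale (adjusted p = 8.42e-09 and 2.59e-18), and ADAM17 fell in SUM159 KD from 36.57 ± 1.06 to 16.71 ± 0.616 CPM (adjusted p = 3.42e-12). Of 9 genes for the glycosylphosphatidylinositol anchor, 2, 4 and 7 rose and 1, 3 and 2 fell. Of 9 partners of the syndecan tail, 4, 2 and 4 rose and 1, 7 and 3 fell. SDCBP fell in BT549 OE from 2311 ± 38.1 to 392.1 ± 3.76 CPM (adjusted p = 2.02e-25). Of the syndecans, whose tails it binds, SDC2, SDC3 and SDC4 were higher there and SDC1 was lower (log2 fold change -0.47). ACTN1, an actin crosslinker that binds SDC4, fell in MDA-MB-231 KD by 0.54 on the log2 scale (adjusted p = 5.54e-12).

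Of 20 ligands and receptors that bind the chains, 7 rose and 4 fell in MDA-MB-231 KD, 11 rose and 7 fell in SUM159 KD, and 10 rose and 9 fell in BT549 OE. FGFR1, whose signaling needs heparan sulfate, rose in all 3, by 0.45 ± 0.03, 1.19 ± 0.04 and 1.70 ± 0.03 on the log2 scale (adjusted p = 1.58e-10, 1.67e-18 and 1.58e-23). MDK, the heparin-binding cytokine midkine, rose in MDA-MB-231 KD from 24.18 ± 0.700 to 48.21 ± 0.366 CPM (adjusted p = 1.2e-12), and its relative PTN rose in BT549 OE by 2.64 ± 0.05 (adjusted p = 2.31e-22). The matrix ligands FN1 and THBS1 rose in SUM159 KD by 1.49 ± 0.04 and 1.71 ± 0.05 (adjusted p = 7.29e-20 and 4.17e-19). BMP2, FGF1 and VEGFA fell in MDA-MB-231 KD, with log2 fold changes of -2.24, -1.28 and -0.28 (adjusted p = 2.6e-08, 4.59e-08 and 0.00011), ROBO1 fell in SUM159 KD by 0.75 (6.36e-11), and BMP4 and SLIT2 fell in BT549 OE, with log2 fold changes of -3.41 and -3.19 (4.17e-19 and 7.07e-19).

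Of 12 other heparan sulfate proteoglycans, 4 rose and none fell in MDA-MB-231 KD, 5 rose and 2 fell in SUM159 KD, and 4 rose and 6 fell in BT549 OE. CD44, a hyaluronan receptor with heparan sulfate forms, rose in MDA-MB-231 KD by 0.37 ± 0.03 and fell in SUM159 KD by 0.46 on the log2 scale (adjusted p = 8.09e-10 and 1.03e-11). SPOCK1, a secreted proteoglycan, fell in SUM159 KD from 39.12 ± 1.11 to 13.28 ± 1.12 CPM and rose in BT549 OE from 258.8 ± 0.158 to 639.2 ± 4.77 CPM (adjusted p = 4.19e-16 and 3.18e-20).

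**Figure D4:**
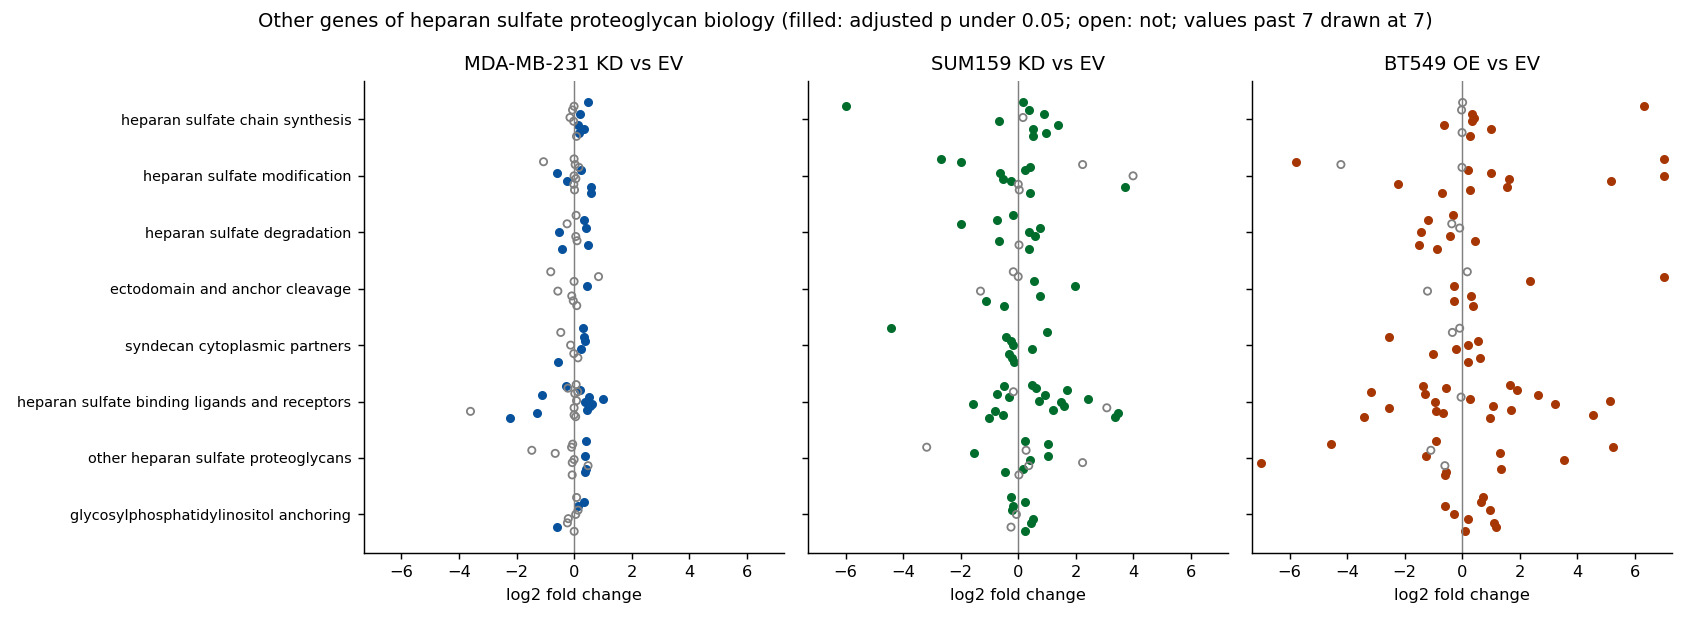
Fitted log2 fold change (x axis) of the 90 tested genes of heparan sulfate proteoglycan biology by list (rows) in the 3 comparisons, filled where the adjusted p was under 0.05 and open where not, with 4 values past 7 in size drawn at 7. Points are filled for 43.3% of the genes in MDA-MB-231 KD, 80% in SUM159 KD and 84.4% in BT549 OE.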

How the data were processed

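The members and gene lists were chosen with earlier results of these data known. RNA of pooled polysome fractions, taken from sucrose gradients after cycloheximide, was sequenced in 12 libraries of 3 established cell lines, grouped by the sample labels. Per the paper's methods, the authors used Trimmomatic for trimming, HISAT2 for alignment to GRCh38, SAMtools for duplicate removal and DESeq2 in Partek for testing. The methods name a stranded kit after rRNA depletion, whereas the labels name an oligo(dT) kit. The counting tool and strand setting are not given in the sources used here. The authors deposited unnormalized expected counts for each transcript, and 3.101% of the values above 0 were whole numbers (tolerance 1e-9). In 8 columns, 5.078% of rows carry a question mark where a number is missing (the deposited numbers are otherwise expected counts), taken as 0, and no transcript of the members was marked. No column of sample values was left out. No transcript given was at 0 in all 4 BT549 libraries, so genes with counts only in MDA-MB-231 or SUM159 are missing.

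Transcripts were matched to GENCODE 44 without version (79.6%), summed per symbol and rounded. Depth was 22954226 to 27434677 counts per library, and a count of 0 allows up to 3 counts, which covers counting error only. Genes kept by filterByExpr were scaled by TMM and fitted with edgeR 4.0.16 (quasi-likelihood, R 4.3.3) as 6 group means with 6 residual degrees of freedom, with Benjamini-Hochberg adjustment over 16538 genes and a threshold of 0.05. The fit was checked on simulated counts. DESeq2 1.42.0, other scalings, filters, transcript choices, a replicate block and leaving out libraries were alternatives. Tables and figures used Python 3.11.15, pandas 2.3.3, numpy 2.4.6 and matplotlib 3.10.9. Named genes were the 7 members, TRMT112, GPC2, GPC3, GPC5, the 2 genes most like each member, and, per comparison and direction, the 4 called pathway genes with the smallest p among those with a mean of at least 50 counts, 1 of which is not reported here. Replicate numbers are shared between EV and KD or OE, but replicate differences correlated at only -0.0159 to 0.0215.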

Additional observations from a re-analysis of the deposited data

Results flagged for a closer look

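SDC1 and GPC6 stood on opposite sides of EV in the KD lines, with every KD library of one line above its EV libraries and every KD library of the other below. In MDA-MB-231 KD the log2 fold changes of SDC1 and GPC6 were 0.30 and -0.24, and in SUM159 KD they were -3.41 and 1.06. GPC6 did not pass the threshold in MDA-MB-231 KD, and in SUM159 it rested on 18 to 60 counts per library. The share of all genes with such opposite pairs was not counted. The fitted difference, MDA-MB-231 minus SUM159, was 3.71 ± 0.06 (SE) for SDC1 and -1.31 ± 0.27 for GPC6, a description with no p since the members were selected on these values.

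Of the 14 other genes of heparan sulfate biology named for the KD lines, 13 differed between the lines in their KD effect by the interaction contrast of the edgeR model (SPOCK1 did not pass, adjusted p = 0.555). SPOCK1 had at most 3 counts in a MDA-MB-231 library, too few to measure its KD effect there. The 14 genes were named for a small p in 1 KD line, which favours such a difference, and 58 of all 90 tested pathway genes (64.4%) and 50.9% of all genes passed that contrast. Given as the log2 fold change in MDA-MB-231 minus that in SUM159, the differences of genes that rose in both lines were -1.41 for MDK, -0.74 for FGFR1, -1.56 for MMP14, -1.24 for EXT1, -1.11 for FN1 and -1.50 for THBS1. Those of genes that fell in both were -0.40 for ACTN1, -1.24 for BMP2 and 0.21 for VEGFA. CD44 rose in MDA-MB-231 and fell in SUM159 (0.83), and FGF1 fell in MDA-MB-231 and rose in SUM159 (-4.76). The FGF1 difference rested on 3 counts in each SUM159 EV library and 31 to 44 counts in SUM159 KD. ADAM17 (1.10) and ROBO1 (0.78) fell in SUM159 and did not pass in MDA-MB-231, where their log2 fold changes were -0.03 and 0.03. The adjusted p-values of these differences lay between 1.17e-16 (EXT1) and 0.0115 (VEGFA).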

How the results depend on the processing

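Across the alternatives run, none of 270 repeats of a member's log2 fold change, made without GPC4, changed sign. Of these, 26 moved by more than the spread between replicates. The 312 repeats of the named pathway genes, each in the comparison it was named for, kept their direction. In the fits with 2 libraries per group they also stayed past the threshold. Other log2 fold changes given for pathway genes, and the sizes of the differences between the KD lines, were not repeated. With library size as the only scaling, 17 pathway genes in place of 10 fell in MDA-MB-231 KD. That scaling set the median of all genes there to -0.08 on the log2 scale and the share of higher calls to 36.7% in place of 56.2%. When 1 library was left out, pathway genes that rose and fell numbered 23 to 26 and 8 to 9 in MDA-MB-231 KD, 36 to 38 and 27 to 29 in SUM159 KD, and 41 to 43 and 32 in BT549 OE, and members past the threshold numbered 4 to 5, 7 and 7. Each such fit leaves a group with 1 library, which is assumed to vary like the others. The GPC4 bound ranged from 1136 to 1168.

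With the replicate block, 29 pathway genes rose and 10 fell in MDA-MB-231 KD, 40 and 32 in SUM159 KD, and 44 and 32 in BT549 OE, as without it, and 60 in place of 58 differed between the KD lines; the numbers showed no sign of pairing the libraries (r from -0.0159 to 0.0215). With 2 libraries per group, GPC6 in SUM159 (18 to 60 counts) and GPC4 outside BT549 OE were the members limited most by depth.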
